A study of Mus musculus with 7 samples.

Results

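The 2 receptors for glucocorticoid hormone and 8 genes known to respond to it were followed in the motor cortex of mice. The 10 genes were taken from the count table by symbol: the receptors Nr3c1 and Nr3c2, and the response genes Fkbp5, Sgk1, Tsc22d3, Zbtb16, Arrdc2, Pdk4, Plin4 and Errfi1. They are 10 of the 54532 genes in the table, and all 10 passed the filter on low counts, among 16308 genes that did.

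Glucocorticoids (corticosterone in mice) are released from the adrenal cortex in stress and with a daily rhythm, and cross into the brain. They bind the glucocorticoid receptor, encoded by Nr3c1, and with higher affinity the mineralocorticoid receptor, encoded by Nr3c2. The bound receptors move from a chaperone complex in the cytoplasm to the nucleus and attach to DNA at glucocorticoid response elements, and transcripts of target genes then build up within hours. Such transcripts are used as a record of the hormone that reached a tissue before collection. Hormone levels were not analysed here.

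All mice received a virus named GA100 on postnatal day 0, injected on both sides into the lateral ventricles. The series title names TIA1, an RNA-binding protein of stress granules, and C9orf72 poly-GA, a repeat protein made from the expanded C9orf72 gene. The brain tissue was collected 3 months later and after behavioural tests. The labels give 3 samples of genotype WT and 4 of genotype CKO (conditional knockout, cKO below). The labels do not name the gene deleted in the CKO mice, its deleted exons or the promoter that drives the recombinase; TIA1 is named in the series title alone. Tia1 had 60.6, 95.8 and 68.9 CPM in WT and 81.4, 80.3, 72.7 and 81.9 CPM in the libraries labelled cKO, all 4 within the WT range. This gave a log2 fold change, cKO minus WT, of 0.07 ± 0.13 (SE; edgeR adjusted p 0.914). Counts per gene do not show whether single exons are missing, so these values do not check the genotype, and cKO below means the libraries so labelled. No uninjected mice were analysed here. Whether every library comes from its own mouse is not stated in the labels, so the spread that p-values rest on may be technical.

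Library totals ran from 15181390 to 16463721 counts, and the members had between 173 counts (Arrdc2 in cKO replicate 3) and 3906 counts (Sgk1 in cKO replicate 4). Markers of cortical tissue were present: 6 of 6 genes of cortical excitatory neurons, Slc17a7 and Camk2a among them, were read in every library. They do not tell motor cortex from other cortical areas. Their summed levels were 4557 to 5114 CPM (counts scaled to a common library size) in WT and 3706 to 4544 CPM in cKO. These ranges did not overlap, and all 6 genes had negative log2 fold changes, 3 of them at an unadjusted p under 0.05 in edgeR and 0 adjusted. Of all tested genes 2.91% were lower in cKO at that unadjusted level. Reads of Xist and none of Ddx3y, which lies on the Y chromosome, marked WT replicate 1 and cKO replicate 1; the other 5 libraries had 1073 to 1386 counts of Ddx3y and at most 8 of Xist. Other markers differed between single libraries: the summed level of 6 meningeal fibroblast markers was 72.5 CPM in WT replicate 1 and 72.4 CPM in cKO replicate 3, against 30.0 to 46.6 CPM elsewhere. The sum of 6 choroid plexus markers was 172 CPM in cKO replicate 4 and 13.6 to 21.7 CPM in the other libraries. For 6 striatal neuron markers it was 1195 CPM in cKO replicate 2 and 616 to 895 CPM in the others. For 5 red cell markers it was 89.3 CPM in cKO replicate 2, 70.7 CPM in WT replicate 3 and 12.9 to 32.0 CPM elsewhere.

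The response element that these receptors prefer is a palindrome of the half-site AGAACA and its reverse complement TGTTCT with any 3 bases between them. Both were searched, on both strands, in RefSeq promoter windows (build GRCm38.p6) that run from 250 bases before to 50 bases after each annotated start. Of the members, 8 had an entry, with 16 windows in all. A half-site was present in 19.0% of all 32851 windows of this length, and in 4 of the 16 member windows: 3 of Sgk1 and 1 of Tsc22d3. The full palindrome was found in 3 of the 32851 windows (0.00913%), and 1 of them was an Sgk1 promoter, 1 of the 6 Sgk1 windows. The 250 bases before the start are shown for that promoter, chr10:21993640-21993889 on the forward strand, with half-sites and the palindrome in capitals. They lie inside the Sgk1 gene but in no annotated exon, and the start is that of the protein-coding transcript Sgk1-202 in GENCODE M21. Beside it stand the windows of 2 members without a match: Arrdc2 (chr8:70839721-70839970, reverse strand), whose mean was higher in cKO like that of Sgk1, and Fkbp5 (chr17:28486150-28486399, reverse strand), whose mean was lower.
Sgk1: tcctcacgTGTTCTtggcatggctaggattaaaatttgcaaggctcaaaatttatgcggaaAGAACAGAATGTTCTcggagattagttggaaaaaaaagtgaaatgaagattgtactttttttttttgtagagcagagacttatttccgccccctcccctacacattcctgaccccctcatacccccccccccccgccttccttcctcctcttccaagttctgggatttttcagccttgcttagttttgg
Arrdc2: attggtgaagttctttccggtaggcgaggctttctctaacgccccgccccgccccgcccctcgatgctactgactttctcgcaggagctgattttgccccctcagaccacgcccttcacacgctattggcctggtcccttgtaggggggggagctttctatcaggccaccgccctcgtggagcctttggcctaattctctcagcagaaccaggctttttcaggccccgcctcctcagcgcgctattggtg
Fkbp5: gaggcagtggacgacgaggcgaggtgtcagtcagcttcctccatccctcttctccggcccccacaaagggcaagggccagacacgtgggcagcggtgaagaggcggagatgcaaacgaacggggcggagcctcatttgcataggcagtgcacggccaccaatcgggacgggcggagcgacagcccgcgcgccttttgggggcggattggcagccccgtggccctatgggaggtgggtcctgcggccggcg

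The Sgk1 palindrome, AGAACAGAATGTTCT, spans 21993701 to 21993715 on chromosome 10, from 189 to 175 bases before the start, and another half-site lies 242 bases before that start. A match is a string of letters and not a measured binding site. No match in a window says only that these letters are not within it; elements of such genes can lie in introns or far upstream. The counts are per gene, so they do not show which of the Sgk1 starts was used.

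Compared per length, as the authors' FPKM, the members were expressed over a range of levels. Sgk1 had the highest mean over the 7 libraries (from 20.8 to 49.5 FPKM in single ones), followed by Tsc22d3 (26.4 FPKM) and Nr3c1 (22.9 FPKM), and the values of these 3 genes overlapped. Zbtb16 (13.9 FPKM) and Errfi1 (11.3 FPKM) came next and overlapped each other; the highest Zbtb16 value, 19.4 FPKM, lay below the lowest of Tsc22d3, 19.8 FPKM. Fkbp5 (7.04 FPKM) stood below Errfi1 in every library and overlapped Nr3c2 (6.51 FPKM). Arrdc2, Pdk4 and Plin4 had 5.27, 4.85 and 4.84 FPKM and did not differ from each other beyond their spread.

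Neither receptor differed between genotypes beyond the spread of the libraries. Nr3c1 (ENSMUSG00000024431, chromosome 18, 39410545 to 39491301, mm10, reverse strand), the receptor that responds when hormone is high, had 159, 155 and 187 CPM in WT replicates 1 to 3 and 161, 181, 181 and 172 CPM in cKO replicates 1 to 4. All 4 cKO values lay within the WT range. The means were 167 ± 17.3 CPM (SD, n = 3) and 174 ± 9.35 CPM (SD, n = 4), a log2 fold change (always cKO minus WT) of 0.06 with a 95% interval from -0.13 to 0.24. On the linear scale that interval runs from 0.916 to 1.18 times the WT level. Nr3c2 (ENSMUSG00000031618, chromosome 8, 76899442 to 77245012, forward strand), which is largely occupied at resting hormone levels, had 45.1, 37.7 and 42.9 CPM in WT and 38.4, 42.6, 51.1 and 38.3 CPM in cKO. Its highest value was in cKO replicate 3 and its lowest in WT replicate 2. Its log2 fold change was 0.02 (95% interval from -0.23 to 0.27), and its sign turned without WT replicate 2 (-0.06) or without cKO replicate 3 (-0.08).

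The ratio of the receptors overlapped between genotypes. The FPKM of Nr3c1 was 3.48 ± 0.377 times that of Nr3c2 in WT (SD, n = 3) and 3.59 ± 0.358 times in cKO (SD, n = 4), with an exact two-sided permutation p of 0.686. WT replicate 1 (3.06) and cKO replicate 3 (3.08), the libraries with most meningeal transcripts, had the lowest ratios, and the part of those transcripts was not tested. In the M21 annotation 247 of the 6474 exon bases of Nr3c2 are shared with Gm10649 on the opposite strand, which had 142 counts in all libraries together.

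**Figure D1:**
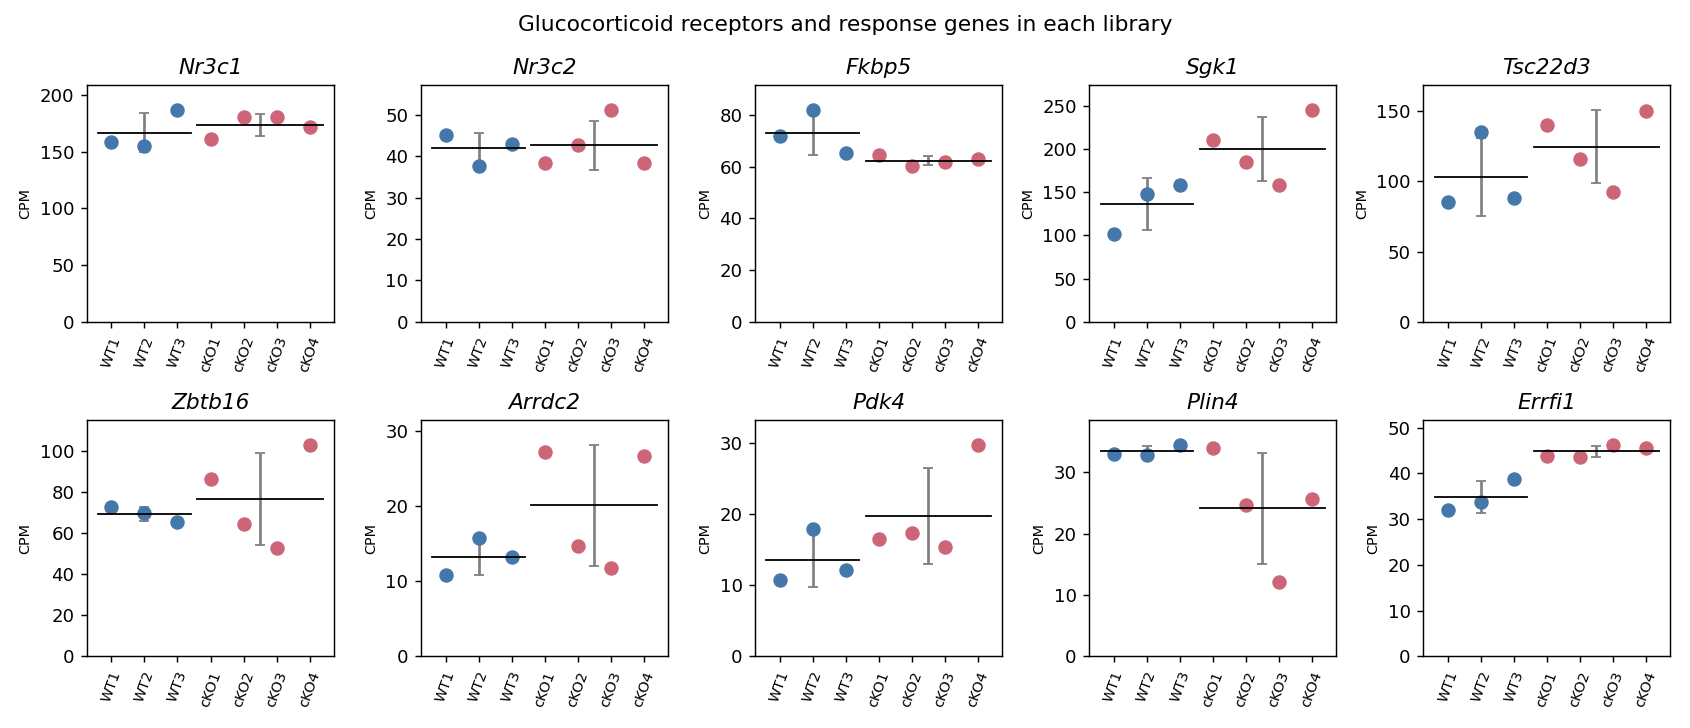
Each panel plots 1 gene, with the library on the x axis and CPM from 0 on the y axis; points are libraries (blue WT, red cKO), horizontal lines are group means and grey bars are SD. Fkbp5 lies lower and Errfi1 higher in every cKO library than in every WT library, and the other 8 genes overlap between genotypes.

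The response genes had values in both directions. Of 8, 6 had higher and 2 lower mean values in cKO, with a median log2 fold change of 0.32, while the median of all tested genes was 0.01 and 51.8% of them lay above 0. Errfi1, Sgk1, Arrdc2 and Pdk4 were higher and Fkbp5 lower at an unadjusted p under 0.05. With p-values of the edgeR quasi-likelihood test adjusted over the whole table, 0 of the 10 members were below 0.05, and 0 of all tested genes were (0%). At an unadjusted p under 0.05 the members numbered 5 of 10, where 7.14% of all tested genes did: 4 with higher values in cKO (background 4.22%) and 1 with lower (background 2.91%). Leaving out 1 library changed the members' count and the share of all genes, but not always together. The count at that level was 5 without WT replicate 2 (9.52% of tested genes), with Tsc22d3 in place of Fkbp5. The count was also 5 without cKO replicate 1 (9.91%), with Plin4 in place of Arrdc2. It was 4 without cKO replicate 2 (4.72%). Errfi1, Fkbp5 and Sgk1 alone were at that level without WT replicate 1 (3.34% of tested genes), WT replicate 3 (5.19%) or cKO replicate 4 (5.08%), and all 8 response genes without cKO replicate 3 (9.55%). With the replicate number as a block, 4 were (background 7.52%): Errfi1, Fkbp5, Sgk1 and Plin4. No WT library has number 4, so cKO replicate 4 adds nothing to the genotype difference in that fit. Under the block Arrdc2 had a log2 fold change of 0.36 and Pdk4 of 0.30, at unadjusted edgeR p of 0.178 and 0.0772, and Plin4 had -0.58 at 0.0262. With DESeq2, 0 members passed adjusted (0.0519% of genes did) and the same 5 unadjusted (6.43%). With limma-voom, 0 passed adjusted (0% of genes) and 5 unadjusted (6.78%), among them Plin4 (p 0.0420) in place of Arrdc2 (p 0.0816). Groups did not overlap for 2 members, Errfi1 higher and Fkbp5 lower in every cKO library, against 7.38% of all tested genes (3.97% higher and 3.42% lower).

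**Figure D2:**
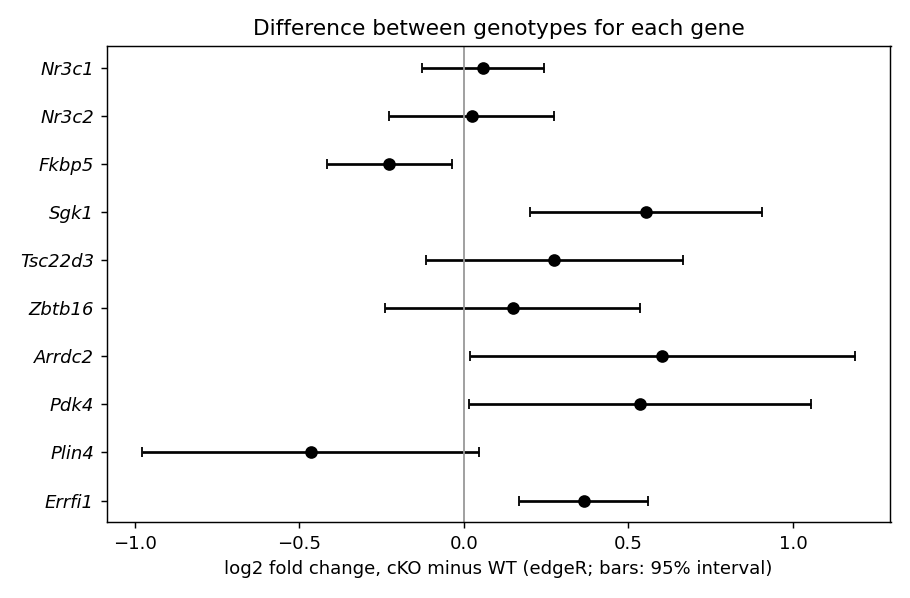
The x axis is the log2 fold change (cKO minus WT) from edgeR and the y axis lists the 10 genes; points are estimates and bars are 95% intervals. Intervals of Errfi1, Sgk1, Arrdc2 and Pdk4 lie above 0 and that of Fkbp5 below 0, while both receptors sit at 0.06 or less.

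Errfi1 (ENSMUSG00000028967, chromosome 4, 150853919 to 150868892, forward strand) encodes an inhibitor of the epidermal growth factor receptor family that glucocorticoids and growth factors induce. Its levels were 32.0, 33.7 and 38.8 CPM in WT replicates 1 to 3 and 43.8, 43.6, 46.2 and 45.6 CPM in cKO replicates 1 to 4. The lowest cKO library stood above the highest WT library. The log2 fold change was 0.36 ± 0.09 (SE, 95% interval from 0.17 to 0.56), with an edgeR p of 0.00169 and an adjusted p of 0.679. By exact permutation (two-sided) p was 0.0571, and 3 against 4 libraries can give none smaller. Its spread within groups was low, with an SD of 0.10 on the log2 scale against a median of 0.18 over all tested genes. Leaving out 1 library moved the fold change only between 0.30 and 0.45.

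Fkbp5 (ENSMUSG00000024222, chromosome 17, 28399094 to 28517527, reverse strand) encodes a co-chaperone that binds the receptor complex and lowers its affinity for hormone; its own induction by the receptor makes it a feedback gene and a common marker of glucocorticoid exposure. It had 72.0, 81.9 and 65.2 CPM in WT and 64.4, 60.5, 61.9 and 62.8 CPM in cKO. Every cKO library lay below every WT library, with WT replicate 3 and cKO replicate 1 the nearest pair. The means were 73.1 ± 8.37 CPM (SD, n = 3) and 62.4 ± 1.65 CPM (SD, n = 4). In edgeR the log2 fold change was -0.23 ± 0.09 (SE), with an edgeR p of 0.0227 and an adjusted p of 0.694. By exact permutation (two-sided) p was 0.0571. The 95% interval runs from 0.749 to 0.974 times the WT level. Without WT replicate 2, the highest library, the log2 fold change was -0.15, and Fkbp5 was no longer at an unadjusted edgeR p under 0.05.

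Sgk1 (ENSMUSG00000019970, chromosome 10, 21882184 to 21999903, forward strand), with the palindrome shown above in 1 of its 6 promoter windows, encodes a kinase that regulates ion channels and transporters and is a target of both receptors. Its levels were 102, 148 and 159 CPM in WT and 210, 185, 158 and 245 CPM in cKO. All WT libraries stood below cKO replicates 1, 2 and 4, and cKO replicate 3 was level with WT replicate 3, just below it. The means were 136 ± 30.2 CPM (SD, n = 3) and 199.7 ± 36.8 CPM (SD, n = 4). They gave a log2 fold change of 0.55 ± 0.16 (SE). The edgeR p was 0.00498, the adjusted p 0.679 and the exact two-sided permutation p 0.114. Without WT replicate 1, the lowest library, the fold change was 0.38.

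Arrdc2 and Pdk4 were high in 1 or 2 cKO libraries and within or near the WT range in the others. Arrdc2 (ENSMUSG00000002910, chromosome 8, 70835129 to 70839720, reverse strand), an arrestin-domain protein, had 10.8, 15.7 and 13.2 CPM in WT and 27.2, 14.7, 11.7 and 26.7 CPM in cKO. Its cKO replicates 1 and 4 were both above every WT value, and cKO replicates 2 and 3 were inside the WT range. Its log2 fold change was 0.60 ± 0.27 (SE, edgeR p 0.0445, adjusted p 0.696), with an exact two-sided permutation p of 0.286. Pdk4 (ENSMUSG00000019577, chromosome 6, 5483351 to 5496309, reverse strand) encodes a kinase that shuts down pyruvate dehydrogenase and so the use of glucose. It had 10.7, 18.0 and 12.2 CPM in WT and 16.5, 17.3, 15.4 and 29.7 CPM in cKO. Only cKO replicate 4 exceeded the highest WT library. A log2 fold change of 0.53 ± 0.24 (SE, edgeR p 0.0450, adjusted p 0.696) with all libraries was 0.26 without cKO replicate 4, which was also the library with the most choroid plexus transcripts; their part in its Pdk4 level was not tested.

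Tsc22d3 and Zbtb16 overlapped widely. Tsc22d3 (ENSMUSG00000031431, chromosome X, 140539528 to 140600659, reverse strand) encodes GILZ, a leucine zipper protein that mediates anti-inflammatory actions of glucocorticoids. Its levels were 85.6, 135 and 88.4 CPM in WT and 140, 116, 92.1 and 150 CPM in cKO. WT replicate 2 stood with the higher cKO libraries and cKO replicate 3 with the lower WT libraries. Its log2 fold change was 0.27 (95% interval from -0.12 to 0.67), and 0.51 without WT replicate 2 or 0.15 without WT replicate 1. Zbtb16 (ENSMUSG00000066687, chromosome 9, 48654297 to 48836222, reverse strand), the zinc finger repressor PLZF, had 72.8, 69.8 and 65.8 CPM in WT and 86.8, 64.9, 53.0 and 103 CPM in cKO. The cKO libraries lay on both sides of the WT libraries: replicates 1 and 4 above, replicates 2 and 3 below. Its log2 fold change of 0.15 (95% interval from -0.24 to 0.54) turned to -0.03 without cKO replicate 4, and to -0.05 with the replicate number as a block. That block also takes cKO replicate 4 out of the genotype difference, as no WT library shares its number.

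Plin4 (ENSMUSG00000002831, chromosome 17, 56100591 to 56109803, reverse strand) encodes perilipin 4, a coat protein of lipid droplets. It was nearly constant in WT at 32.9, 32.8 and 34.4 CPM, and had 34.001, 24.7, 12.2 and 25.6 CPM in cKO. Replicate 1 of the cKO group stood within the WT range and the other 3 below it, the lowest being cKO replicate 3. The log2 fold change was -0.47 (95% interval from -0.98 to 0.05; edgeR adjusted p 0.709), and -0.25 without cKO replicate 3. In the M21 annotation 17 of 5777 exon bases of Plin4 are shared with Hdgfl2 on the opposite strand.

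The members differed in how far single libraries strayed. The SD within groups on the log2 CPM scale was 0.50 for Arrdc2, 0.49 for Plin4 and 0.41 for Pdk4, and 9.76%, 10.4% and 14.9% of tested genes had a larger one. It was 0.30 to 0.34 for Sgk1, Zbtb16 and Tsc22d3. For Fkbp5 and Nr3c1 it was 0.11 each, below the median of 0.18.

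Across genes, single libraries stood out. For 4 of the 8 response genes cKO replicate 4 was the highest of all libraries, and for 6 of 8 it was among the top 2; cKO replicate 1 was among the top 2 for 5. At the other end WT replicate 1 was the lowest for 5 genes and cKO replicate 3 for 2, Zbtb16 and Plin4. The share of all tested genes with such ranks in each library was not counted, so these ranks may not be particular to the members. The mean over the 8 genes of log2 CPM minus the WT mean was 0.50 in cKO replicate 4 and 0.37 in cKO replicate 1. It was 0.09 in cKO replicate 2 and -0.19 in cKO replicate 3, below all 3 WT libraries (-0.16, 0.17 and -0.01). The low mean of cKO replicate 3 leaned on Plin4, at -1.44. Its other response genes lay between -0.39 (Zbtb16) and 0.41 (Errfi1). With each gene scaled to the same spread, WT replicate 1 had the lowest mean (-0.68), just below cKO replicate 3 (-0.67). Fkbp5 and Errfi1 did not follow the order of these means: both were nearly equal in the 4 cKO libraries.

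**Figure D3:**
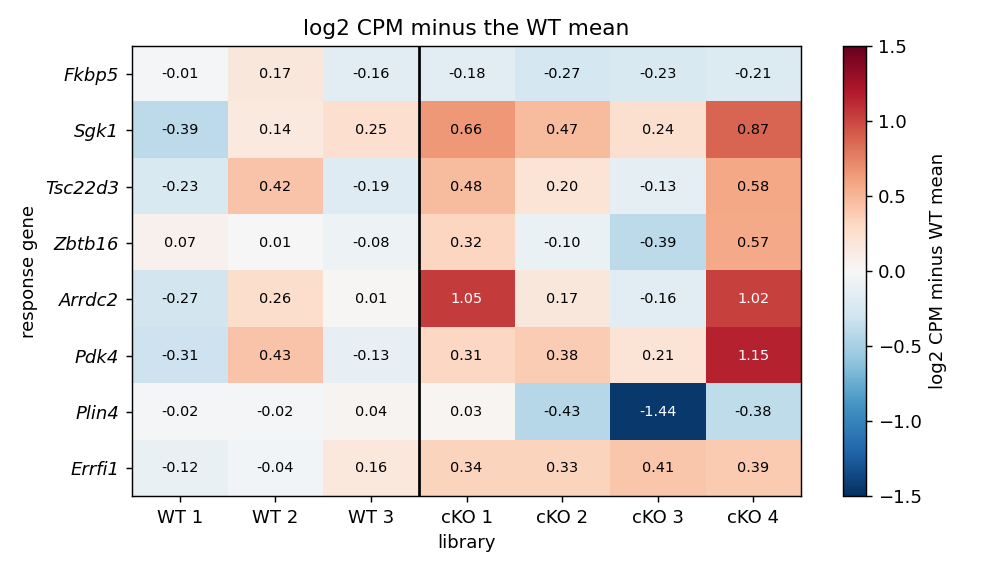
Rows are the 8 response genes and columns the 7 libraries; colour and number give log2 CPM minus the mean of the WT libraries. Arrdc2 reaches 1.05 and 1.02 in cKO replicates 1 and 4, Plin4 is at -1.44 in cKO replicate 3, and Fkbp5 and Errfi1 are even across the cKO columns.

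Oligodendrocytes, in which glucocorticoids are known to induce Sgk1, were unevenly represented. Markers of these cells summed to 3804, 5826 and 5299 CPM in WT replicates 1 to 3 and to 6832, 8199, 4105 and 7240 CPM in cKO replicates 1 to 4. All 8 markers had positive log2 fold changes, with a median of 0.35. At an unadjusted edgeR p under 0.05 stood 2 of 8, Ermn among them, and 0 passed adjusted. Of all tested genes 4.22% were higher in cKO at that unadjusted level. The lowest sums were in WT replicate 1 and cKO replicate 3, which also had the lowest response-gene means, that of cKO replicate 3 with Plin4 at -1.44. The highest sum was in cKO replicate 2, whose response-gene mean (0.09) was below those of WT replicate 2 (0.17), cKO replicate 1 (0.37) and cKO replicate 4 (0.50). The part of these cells in the response-gene values was not tested, and in bulk tissue fewer cells of a type cannot be told apart from less RNA per cell. Endothelial markers, from cells that also carry the receptor, summed to 246 to 294 CPM in WT and 266 to 285 CPM in cKO, and the cKO range lay within that of WT. Of the other marker lists, positive values were 4 of 5 for astrocytes, 1 of 5 for microglia, 2 of 6 for mural cells, 6 of 6 for striatal neurons and 4 of 5 for red cells, with 0 genes passing adjusted.

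Sex, as read from Xist and Ddx3y, was split in both genotypes, so values were also taken within each sex. Between cKO replicate 1 and WT replicate 1, the only libraries with Xist, Arrdc2 was 2.51 times, Sgk1 2.07 times and the X-linked Tsc22d3 1.64 times as high, a comparison of 2 libraries with no replicate. In the libraries with Ddx3y (2 WT, 3 cKO) the log2 fold changes were 0.29 ± 0.30 (SE) for Arrdc2, 0.35 ± 0.17 for Sgk1 and 0.10 ± 0.22 for Tsc22d3. Plin4 went the other way, with 1.03 times the level between the Xist libraries and -0.69 ± 0.26 (SE) in the others. Errfi1 (1.37 times, and 0.31 ± 0.11) and Fkbp5 (0.894 times, and -0.25 ± 0.11) kept their direction in both. In the libraries with Ddx3y 0 members passed the edgeR threshold adjusted over all genes (0% of genes did). Fkbp5, Plin4 and Errfi1 were at an unadjusted p under 0.05 there, where 4.87% of tested genes were. A difference between the sexes in the effect of genotype was not tested.

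The other genes of the pathway were read from lists of their roles. Among 9 chaperones and carriers that fold the receptor and move it to the nucleus, 7 had positive and 2 negative log2 fold changes, with a median of 0.08. Of the 9, the p23 co-chaperone gene Ptges3 alone had an unadjusted edgeR p under 0.05, as did 7.14% of all tested genes. Ptges3 had 67.4, 82.1 and 72.6 CPM in WT and 76.1, 96.3, 101 and 92.3 CPM in cKO (log2 fold change 0.30 ± 0.11, SE, edgeR adjusted p 0.679). Fkbp4, the co-chaperone that opposes Fkbp5 in the complex, was between 92.7 and 102 CPM in WT and between 94.5 and 106 CPM in cKO. Of 11 coactivators and corepressors 9 were positive and 2 negative with a median of 0.04, and 0 had an unadjusted p under 0.05; the corepressor Ncor1, among the most abundant, had 0.05. These values sit close to the 0.01 of all tested genes.

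Of the genes that set hormone supply within the tissue, 4 of 5 passed the filter, with 2 positive and 2 negative values and a median of 0.02. Hsd11b1, which regenerates active corticosterone from its inactive form, had 9.91 to 12.4 CPM in WT and 14.6, 12.2, 7.31 and 14.2 CPM in cKO. Its highest values were in cKO replicates 1 and 4 and its lowest in cKO replicate 3. Its log2 fold change was 0.17 (95% interval from -0.29 to 0.62). Abcb1a, the drug pump that limits entry of steroids at the blood-brain barrier, had -0.14 ± 0.12 (SE). Hsd11b2, the inactivating enzyme, was at or below 0.264 CPM in every library and was not tested.

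A further 20 genes that glucocorticoids are known to induce did not shift to one side: 8 had positive and 12 negative log2 fold changes, with a median of -0.02. Bcl6, a transcriptional repressor, had 25.7 to 29.4 CPM in WT and 29.3 to 35.8 CPM in cKO, with an unadjusted edgeR p of 0.0173 (adjusted p 0.691). Mt2, a metallothionein, had a log2 fold change of -1.27 ± 0.46 (SE) with an unadjusted p of 0.0162 and an adjusted p of 0.691. Its levels were only 1.58 to 2.26 CPM in WT and 0.271 to 1.57 CPM in cKO, while the more abundant metallothionein Mt1, at 99.3 to 155 CPM, had -0.02. None of the 20 passed the adjusted threshold in edgeR, with 1 higher and 1 lower at an unadjusted p under 0.05. Of all tested genes 4.22% were higher and 2.91% lower at that unadjusted level.

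Relatives of the members were compared to see whether values were shared within families. Of 16 tested relatives 10 were positive and 6 negative, with a median of 0.04. At an unadjusted edgeR p under 0.05 were 3, where 7.14% of all tested genes were. Arrdc3, a relative of Arrdc2, had 55.5, 85.8 and 69.8 CPM in WT and 77.9, 97.2, 87.9 and 105 CPM in cKO. That is a log2 fold change of 0.39 ± 0.14 (SE). Tsc22d2 had 0.20 ± 0.08, with no overlap between groups. Pdk2, the most abundant of the 3 other kinases of pyruvate dehydrogenase tested, was lower in every cKO library than in every WT library, at -0.17 ± 0.07, opposite in sign to Pdk4. Adjusted p from edgeR were 0.691 to 0.695 for these 3 genes. Sgk3 (0.19), Plin2 (0.23) and Plin3 (0.25) had intervals that spanned 0.

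**Figure D4:**
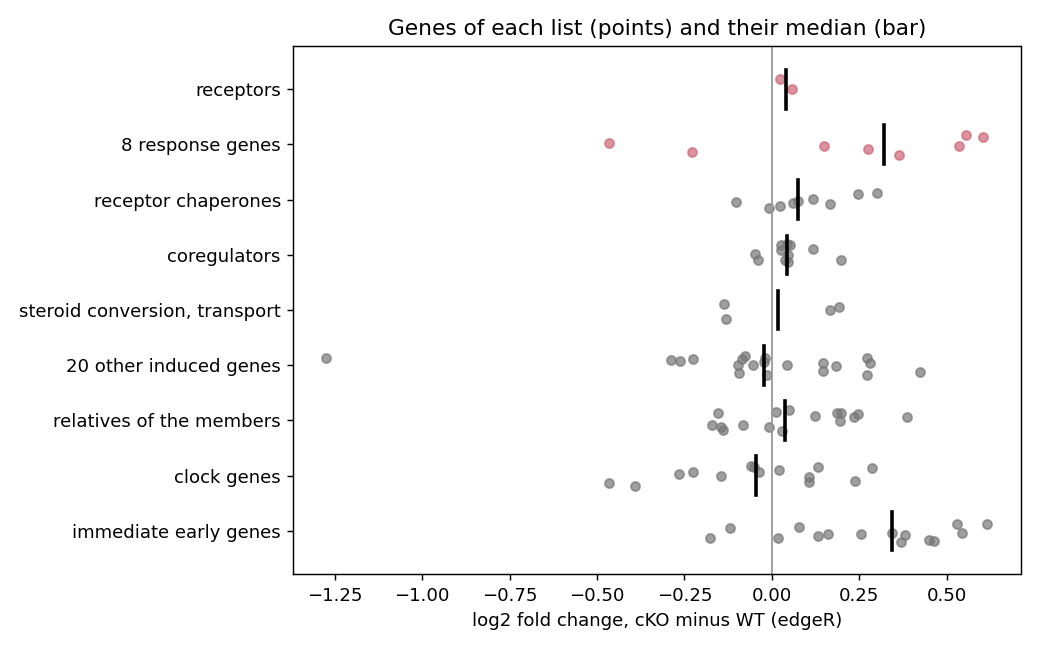
Each row is a gene list, each point a tested gene and the black bar the list's median; the x axis is the log2 fold change (cKO minus WT). The 8 response genes spread from -0.47 to 0.60 around a median of 0.32, while the 20 other induced genes centre on -0.02.

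Because corticosterone follows the time of day and is raised by handling, clock and activity genes were set beside the members. Of 14 clock genes 6 were positive and 8 negative. Dbp, an output gene of the clock, had 54.8, 50.3 and 43.3 CPM in WT and 42.0, 33.9, 35.6 and 31.5 CPM in cKO, lower in every cKO library (log2 fold change -0.47 ± 0.11, SE; edgeR p 0.00150, adjusted p 0.669). Nr1d1, a repressor in the clock, was likewise lower in every cKO library (-0.22 ± 0.09). Arntl, the activator that Nr1d1 represses, was higher in every cKO library, with 32.2 to 34.1 CPM in WT and 36.2 to 43.2 CPM in cKO (0.29 ± 0.09). Per1, which both the clock and the glucocorticoid receptor control, had 95.7 to 97.1 CPM in WT and 98.1 to 117 CPM in cKO. Of the 14 clock genes, the groups thus did not overlap for Arntl, which was higher, and for Dbp and Nr1d1, which were lower. The other clock genes overlapped. Of all tested genes 3.97% were higher and 3.42% lower in every cKO library. Per1, which did not overlap either, was counted with the 20 other induced genes and not with the 14. The labels give no hour of collection, and its part in the response genes was not tested.

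Immediate early genes, whose transcripts follow neuronal activity quickly, had 13 positive and 2 negative values of 15, with a median of 0.34. Over all tested genes 4.22% were higher in cKO at an unadjusted edgeR p under 0.05. At that level stood 5 of the 15: Fos (0.53 ± 0.18, SE), Fosb (0.46 ± 0.16), Fosl2 (0.62 ± 0.17), Egr1 (0.26 ± 0.10) and Npas4 (0.37 ± 0.17), and 0 passed adjusted in edgeR. Their library order was another one: the mean deviation was highest in cKO replicates 3, 2 and 4 (0.21, 0.20 and 0.18) and below 0 in cKO replicate 1 (-0.15), the library with the second highest response-gene mean. Fos was highest in cKO replicate 3 (38.6 CPM), where 2 response genes were at their lowest.

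Genes whose library pattern was most like the response genes were sought over all tested genes outside the lists, with Pearson's r across the 7 libraries to the mean of the 8 standardised log2 CPM values. The highest r belonged to the noncoding RNAs Gm16861 (0.982) and Gm3294 (0.977) and to Pcgf6 (0.975), a Polycomb group protein. Gm16861 is annotated as antisense and had at most 1.44 CPM, and whether counting used strand is not known. The lowest were Ccdc3 (-0.981), Maged1 (-0.978) and Creg2 (-0.974). These are the extremes of 16153 tested genes over 7 points that share depth and tissue makeup, and are given as a description. Pcgf6 had 8.63, 11.6 and 10.3 CPM in WT and 12.5, 11.0, 9.40 and 15.4 CPM in cKO, with its top values in cKO replicates 4 and 1. The edgeR adjusted p of these 6 genes for genotype were 0.775 to 0.879.

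The calls depended on the filter on low counts. With no filter, edgeR called 198 of 31277 genes (0.633%) and 4 members: Sgk1, Arrdc2 and Pdk4 with higher and Plin4 with lower values in cKO, at adjusted p of 1.00e-05, 0.00802, 0.0357 and 0.0161. In that fit 9349 genes had fewer than 10 reads in all, and the estimated prior degrees of freedom, 7.03 with the filter, became infinite, so that every gene was given the trended dispersion. Arrdc2, Plin4 and Pdk4 are the members with the widest spread within groups, and Errfi1, with the smallest spread, was not called (adjusted p 0.119).

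**Figure D5:**
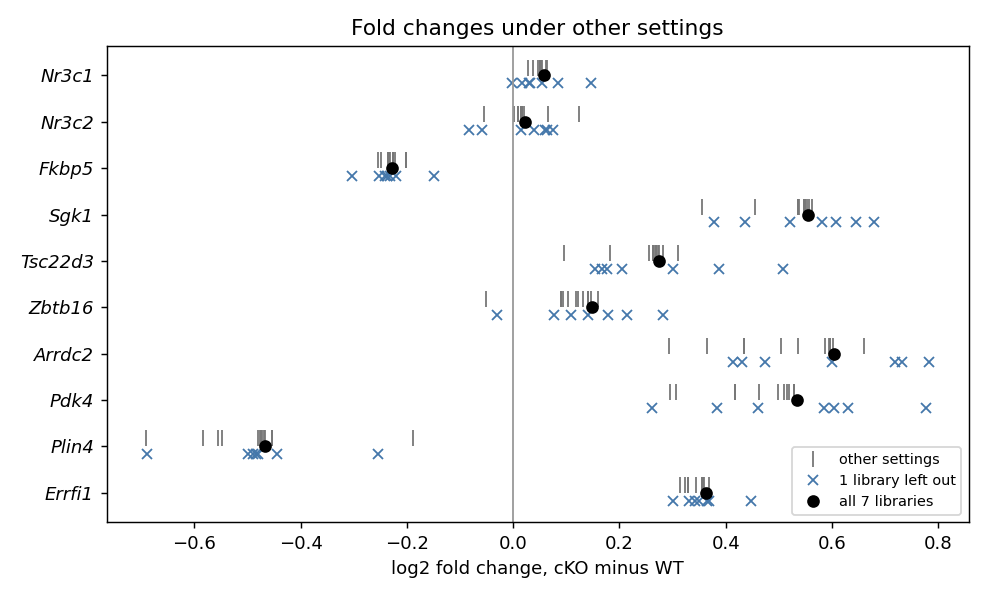
The x axis is the log2 fold change (cKO minus WT) and rows are the 10 genes; black points use all 7 libraries, blue crosses leave out 1 library each and grey ticks are other settings. Fkbp5, Sgk1, Tsc22d3, Arrdc2, Pdk4, Plin4 and Errfi1 stay on one side of 0, while Nr3c1, Nr3c2 and Zbtb16 cross it.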

How the data were processed

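RNA-seq libraries of motor cortex (3 WT, 4 cKO) were used. The raw gene counts deposited by the authors were made with featureCounts 1.5.0-p3, named with DESeq2 1.20.0 and the mm10 build in the submitters' processing notes; per the file headers the second table holds the authors' FPKM, per kilobase of the listed gene length. Sources used here do not give the aligner, the annotation release or the strand setting. The members and gene lists were chosen with earlier results of these data known. Counts were fitted in edgeR 4.0.16 (R 4.3.3) with TMM scaling, filterByExpr and the quasi-likelihood F test, adjusted by Benjamini-Hochberg over all 16308 tested genes. CPM use TMM-scaled library sizes; log2 CPM add a prior count of 2. Standard errors are the log2 fold change over the root of F. Single values used exact two-sided permutation tests (SciPy 1.17.1). The fit was tested on simulated data. Alternatives were DESeq2 1.42.0, limma 3.58.1 (voom, and log2 FPKM with a pseudocount), other scalings and filters, sex, the replicate block and leaving out libraries. Named genes were the members, list genes at an unadjusted p under 0.05 or else the 2 most abundant of a list, and the 3 most and least alike; other list genes are named as examples chosen after their values were seen. No 2 libraries agreed within sampling noise (chi-square per degree of freedom from 4.42 to 23.1). Pairs with cKO replicate 3 ranged from 15.6 to 23.1, and pairs without it from 4.42 to 16.1. Same-numbered libraries of both genotypes deviated together (r = 0.110, 0.128 and 0.122), above the 0.1 set for pairing; 2 pairs of other numbers correlated more, WT 2 with cKO 4 (r = 0.210) and WT 1 with cKO 3 (r = 0.129), and no label says what the numbers mean. Some genes that this rule names are not reported here.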

Additional observations from a re-analysis of the deposited data

Results flagged for a closer look

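In the cKO group of 4 libraries, 1 library stood far from the other 3 (its gap to the nearest over the range of the group was above Dixon's 95% critical value) for Pdk4, at 29.7 CPM in replicate 4, for Npas4, at 18.0 CPM in replicate 3, and for Ttr, a choroid plexus gene, at 154 CPM in replicate 4. Chance gives about 1 such flag in 20 groups, and 37 groups were looked at.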

How the results depend on the processing

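No member passed adjusted over all genes in 20 of 21 alternatives; with no filter 4 did, among 198 genes of all tested. Genes called were otherwise 6 with DESeq2, 3 on log2(FPKM + 1) with no filter, 2 with the replicate block, 1 without cKO replicates 3 and 4 (added after seeing the data) and 0 to 3 leaving out 1 library. The replicate block changed no adjusted call of a member, and in it cKO replicate 4, with no WT library of its number, does not inform the genotype difference. Members at an unadjusted p under 0.05, 5 in the fit reported, were 3 with upper-quartile scaling (7.17% of genes tested), library totals (6.95%), the CPM filter (7.39%), log2(FPKM + 1) (6.98%, or 5.22% with no filter), log2(FPKM + 0.1) (7.05%) and the libraries with Ddx3y (4.87%). They were 7 with no filter (6.68%), 4 with the replicate block (7.52%), with sex as a covariate (6.98%) and without cKO replicates 3 and 4 (5.39%), and 3 to 8 leaving out 1 library (8 without cKO replicate 3). The median of the 8 response genes stayed between 0.21 and 0.42. Signs turned for Nr3c1 (-0.0017 without WT replicate 2, 0.15 without WT replicate 3), Nr3c2 (-0.083 to 0.075 leaving out 1 library, -0.055 without cKO replicates 3 and 4) and Zbtb16 (-0.051 with the replicate block, -0.031 to 0.28 leaving out 1 library); the cause was not tested. Depth was alike in all libraries; the number of libraries limits the precision.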
